A study of Homo sapiens with 7 samples.

Results

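The mRNA of 9 death and decoy receptors of the TNF receptor superfamily was followed in RH30 cells. The genes were taken by name from the 57189 genes of the count file, and all 9 were listed there. They comprise 6 receptors with an intracellular death domain (FAS, TNFRSF1A, TNFRSF10A, TNFRSF10B, TNFRSF21 and TNFRSF25) and 3 decoy receptors (TNFRSF10C, TNFRSF10D and TNFRSF11B). RH30 is an established line of alveolar rhabdomyosarcoma (RMS), a childhood tumor of the skeletal muscle lineage that carries the PAX3-FOXO1 fusion. BV6 is a bivalent Smac mimetic, a small molecule that binds inhibitor of apoptosis proteins (IAPs) and triggers the degradation of cIAP1 and cIAP2. The 7 samples were bulk poly(A) RNA libraries, 4 from untreated cells and 3 from cells kept in medium with 5 µM BV6 for 24 h. The labels give the genotype as wt in both groups, whereas the methods describe RH30 cells carrying GFP and luciferase throughout, and which of these was sequenced is not told. All samples come from this 1 line. A tag in the sample titles (BC13, BC14, BC25/27) was read as the experiment, although the labels do not explain it. It ties BV6 replicates 2, 3 and 4 to untreated replicates 2, 3 and 4. Untreated replicate 1 (BC11) has no BV6 partner.

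Death receptors are trimeric surface receptors. When their ligand binds, the death domain recruits FADD or TRADD, and caspase-8 is activated on the assembled complex, which starts extrinsic apoptosis. Fas binds FasL, TNFR1 (TNFRSF1A) binds TNFα and lymphotoxin, DR3 (TNFRSF25) binds TL1A, and DR4 (TNFRSF10A) and DR5 (TNFRSF10B) bind TRAIL. DR6 (TNFRSF21) has a death domain as well. Decoy receptors take up ligand without passing on a death signal, since DcR1 (TNFRSF10C) is held by a lipid anchor without a cytoplasmic part, DcR2 (TNFRSF10D) has a truncated death domain, and osteoprotegerin (TNFRSF11B) is secreted and binds both TRAIL and RANKL. NK cells carry FasL and TRAIL, so the question behind these values is which of the receptors RH30 cells transcribe and whether BV6 changes them.

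The deposited counts summed to between 54070030 and 77220882 per library. Levels are given as CPM, the count scaled to a common library size after TMM normalization, and 3 counts, the smallest number taken as detected, correspond to 0.0389 to 0.0557 CPM. This floor covers counting error only, and if both mates of a read pair were counted, which is not stated, a given count stands for fewer fragments. The muscle genes that define the line were present in all libraries, with MYOD1 at 157 to 474 CPM, DES at 451 to 865 CPM and FGFR4 at 211 to 933 CPM. The summed level of 6 myogenic markers was 1825 to 2623 CPM in untreated and 1159 to 2117 CPM in BV6-treated libraries, and none of the 6 passed the test. The summed level of 9 leukocyte markers was 9.57 to 13.4 CPM in untreated and 6.83 to 11.3 CPM in BV6-treated libraries, most of it from NKG7. The B-cell gene MS4A1 had at most 8 counts and the NK cell gene NCR1 at most 6. The 3 endothelial markers summed to 48.9 to 69.3 CPM in untreated and 26.4 to 58.5 CPM in BV6-treated libraries. Nearly all of this came from PECAM1, with at most 16 counts of CDH5. VWF went the other way, with 27 to 67 counts in untreated and 73 to 102 counts in BV6-treated libraries. No tested endothelial marker was called (edgeR). The 4 epithelial markers together stayed at 0.557 to 0.987 CPM. The part of these markers in the results was not tested.

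Among the receptors, TNFRSF10B, the gene of DR5, had the smallest p-value. Its level was higher with BV6 in each of the 3 experiments, by similar proportions, but the difference did not pass the test after adjustment over all genes. TNFRSF10B (ENSG00000120889.13, chromosome 8, 23020133 to 23069031, minus strand) had 110.3, 120.1, 95.9 and 109.9 CPM in untreated replicates 1 to 4 and 162, 139 and 151 CPM in BV6 replicates 2, 3 and 4. All BV6 libraries lay above all untreated ones. The means were 109 ± 9.92 CPM (SD, n = 4) and 151 ± 11.6 CPM (SD, n = 3). The estimated log2 fold change of BV6 over untreated was 0.47 ± 0.109 (SE, 95% interval 0.22 to 0.71), a 1.38-fold level, with an adjusted p of 0.156 (edgeR's quasi-likelihood test, Benjamini-Hochberg over all genes tested). Within experiments, the BV6 library had 1.35, 1.45 and 1.38 times the CPM of its untreated partner. With the replicate block, in which untreated replicate 1 carries no information on the difference, the estimated log2 fold change was 0.48 ± 0.0822 (SE) and the adjusted p was 0.051 (edgeR). The exact two-sided permutation test of the CPM values gave p = 0.0571, the smallest that 4 against 3 samples allow. When single libraries were left out, the log2 fold change lay between 0.41 and 0.53 and the adjusted p between 0.165 and 0.431 (edgeR). In bulk RNA, a change in all cells and a change in a share of them cannot be told apart.

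**Figure D1:**
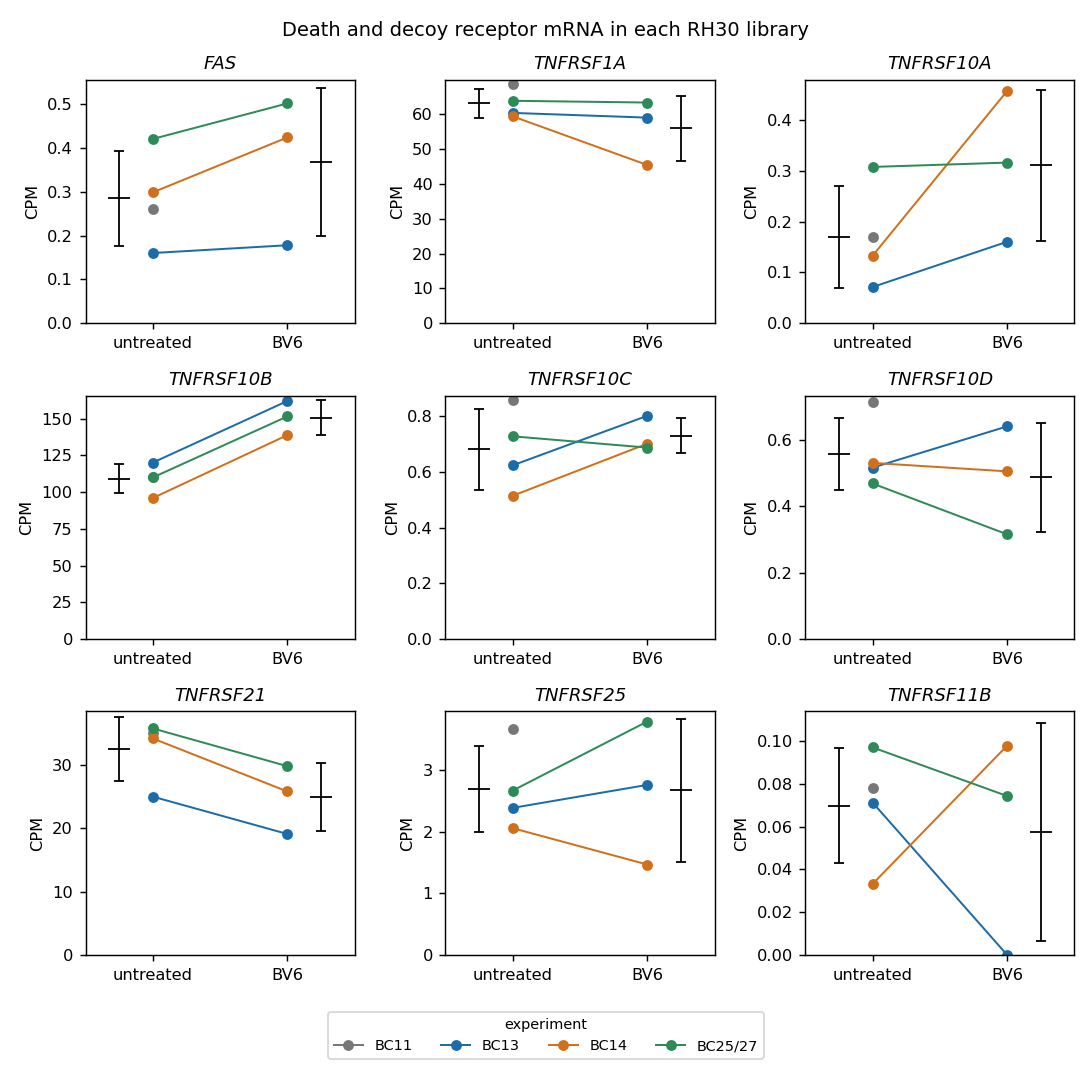
CPM of each of the 9 receptors in each library, with linear axes that start at 0. Lines join the untreated and the BV6 library of the same experiment, and the black bars beside the points are the mean and SD of the 4 untreated and 3 BV6 libraries. TNFRSF10B is higher in BV6 on all 3 lines, with 95.9 to 120.1 CPM in untreated and 139 to 162 CPM in BV6 libraries, TNFRSF21 is lower on all 3, and the axes of FAS, TNFRSF10A, TNFRSF10C, TNFRSF10D and TNFRSF11B end below 1 CPM.

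The other death receptor for TRAIL, DR4, was barely transcribed. TNFRSF10A (ENSG00000104689.10, chromosome 8, 23190452 to 23225102, minus strand) had 13, 4, 8 and 19 counts in untreated replicates 1 to 4 and 9, 28 and 17 counts in BV6 replicates 2, 3 and 4. In CPM these were 0.17 ± 0.1 (SD, n = 4) and 0.311 ± 0.148 (SD, n = 3), with overlap between the groups. The BV6 library had 2.25 times the CPM of its partner in experiment BC13, 3.44 times in BC14 and 1.03 times in BC25/27. The log2 fold change of 0.86 had an SE of 0.531, a 95% interval from -0.33 to 2.05 and an adjusted p of 0.722 (edgeR). Any value from a 0.795-fold to a 4.14-fold level lay within the interval at this depth. Without BV6 replicate 3 the log2 fold change was 0.47.

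Both decoy receptors for TRAIL were transcribed at a low level, and neither passed the test. TNFRSF10C (ENSG00000173535.15, chromosome 8, 23102921 to 23117445, plus strand) had 66, 35, 31 and 45 counts in untreated replicates 1 to 4 and 45, 43 and 37 counts in BV6 replicates 2 to 4. The mean levels were 0.681 ± 0.146 CPM (SD, n = 4) and 0.73 ± 0.0622 CPM (SD, n = 3), and the groups overlapped. Its estimated log2 fold change was 0.10 ± 0.264 (SE, adjusted p = 0.942, edgeR), with an interval from -0.50 to 0.69. TNFRSF10D (ENSG00000173530.6, chromosome 8, 23135588 to 23164027, minus strand) had 55, 29, 32 and 29 counts in untreated and 36, 31 and 17 counts in BV6-treated cells. Its mean levels were 0.558 ± 0.108 CPM (SD, n = 4) and 0.487 ± 0.163 CPM (SD, n = 3). The groups overlapped here as well, and the log2 fold change of -0.20 ± 0.324 (SE, adjusted p = 0.889, edgeR) had an interval from -0.92 to 0.53. The direction of both genes turned when a single library was left out, to -0.015 for TNFRSF10C without untreated replicate 3 and to 0.03 for TNFRSF10D without BV6 replicate 4.

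The 4 TRAIL receptor genes lie side by side within chromosome 8, and their levels were set against each other per kb of exon sequence. TNFRSF10B supplied 96.4 to 97.7% of their summed CPM per kb in untreated and 97.4 to 97.9% in BV6-treated libraries. The decoys TNFRSF10C and TNFRSF10D supplied 3.31, 2.24, 2.46 and 2.66% in untreated replicates 1 to 4 and 2.12, 2.1 and 1.73% in BV6 replicates 2, 3 and 4. The decoy share was thus lower in every BV6 library than in any untreated library. The nearest values, 2.24% in untreated and 2.12% in BV6 replicate 2, rest on few counts. TNFRSF10C and TNFRSF10D had 35 and 29 counts in the former library and 45 and 36 in the latter. The counting error of the shares was not estimated. The mean shares were 2.67% ± 0.464 (SD, n = 4) and 1.98% ± 0.218 (SD, n = 3), a difference of -0.687 percentage points with an exact two-sided permutation p of 0.0571, the smallest this design can give. It was lower in BV6 in 3 of 3 experiments, with a mean difference of -0.472 percentage points when paired by experiment (the replicate block, which leaves out untreated replicate 1). The summed level of the decoys was 0.598 ± 0.116 CPM per kb (SD, n = 4) in untreated and 0.61 ± 0.0838 CPM per kb (SD, n = 3) in BV6-treated cells (exact permutation p = 1). That of DR4 and DR5 together was 21.8 ± 1.98 and 30.2 ± 2.27 CPM per kb (exact permutation p = 0.0571). TNFRSF10B makes up nearly all of this sum and of the total under the decoy share. The permutation results for the sum and the share are therefore not separate from that for TNFRSF10B itself.

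**Figure D2:**
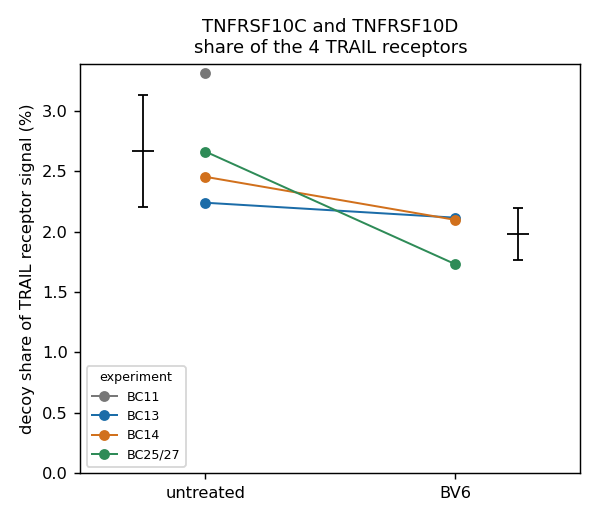
Share of TNFRSF10C and TNFRSF10D in the summed CPM per kb of the 4 TRAIL receptors, in percent, for each library. Lines join the libraries of 1 experiment and the black bars give the mean and SD of each group. The 3 BV6 libraries (1.73 to 2.12%) lie below the 4 untreated libraries (2.24 to 3.31%).

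The gene of TNFR1 was well expressed and showed no detectable change. TNFRSF1A (ENSG00000067182.9, chromosome 12, 6328757 to 6342114, minus strand) had 68.6, 60.3, 59.3 and 63.7 CPM in untreated replicates 1 to 4 and 58.9, 45.3 and 63.2 CPM in BV6 replicates 2, 3 and 4. BV6 replicate 3 was the lowest of the 7 libraries, and the other BV6 libraries lay within or just below the untreated range. The means were 63 ± 4.21 CPM (SD, n = 4) and 55.8 ± 9.34 CPM (SD, n = 3). The estimated log2 fold change was -0.17 ± 0.132 (SE, interval -0.47 to 0.12, adjusted p = 0.766, edgeR). Without BV6 replicate 3 it was -0.04.

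FAS transcripts were scarce in both groups. FAS (ENSG00000026103.25, chromosome 10, 88953813 to 89029605, plus strand) had 20, 9, 18 and 26 counts in untreated replicates 1 to 4 and 10, 26 and 27 counts in BV6 replicates 2 to 4, respectively. Mean levels were 0.285 ± 0.108 CPM (SD, n = 4) and 0.368 ± 0.169 CPM (SD, n = 3), with overlapping groups. Each BV6 library was above its partner, at 1.11, 1.42 and 1.19 times the CPM. The log2 fold change of 0.36 ± 0.449 (SE, adjusted p = 0.849, edgeR) had an interval from -0.64 to 1.37, which spans levels from 0.64-fold to 2.59-fold. With each library left out in turn the estimate lay between 0.09 and 0.70.

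DR6 had a lower mean level with BV6, without passing the test. TNFRSF21 (ENSG00000146072.6, chromosome 6, 47231532 to 47309905, minus strand) had 35.1, 25.03, 34.2 and 35.8 CPM in untreated replicates 1 to 4 and 19.1, 25.8 and 29.8 CPM in BV6 replicates 2, 3 and 4. The groups overlapped because of untreated replicate 2, which was far below the other untreated libraries, but its own BV6 partner was lower still. Within experiments the BV6 library had 0.764, 0.755 and 0.833 times the CPM of the untreated one. The means were 32.5 ± 5.05 CPM (SD, n = 4) and 24.9 ± 5.42 CPM (SD, n = 3), which gave a log2 fold change of -0.38 ± 0.183 (SE, adjusted p = 0.62, edgeR). With the replicate block the estimated log2 fold change was -0.35 ± 0.102 (SE, interval -0.59 to -0.11), and the adjusted p of 0.228 (edgeR) did not pass either. Without BV6 replicate 2 the log2 fold change was -0.22.

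For DR3 the experiments pointed in different directions, and osteoprotegerin was too low to test. TNFRSF25 (ENSG00000215788.11, chromosome 1, 6460786 to 6466175, minus strand) had 3.66, 2.39, 2.06 and 2.67 CPM in untreated replicates 1 to 4 and 2.76, 1.47 and 3.79 CPM in BV6 replicates 2, 3 and 4. The highest and the lowest of all libraries were both BV6 libraries. The estimated log2 fold change was -0.02 ± 0.322 (SE, interval -0.74 to 0.70, adjusted p = 0.992, edgeR), and 0.09 with the replicate block. TNFRSF11B (ENSG00000164761.9, chromosome 8, 118923557 to 118951885, minus strand) had 6, 4, 2 and 6 counts in untreated and 0, 6 and 4 counts in BV6-treated cells. It did not pass the filter on low counts, and no fold is given for it.

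**Figure D3:**
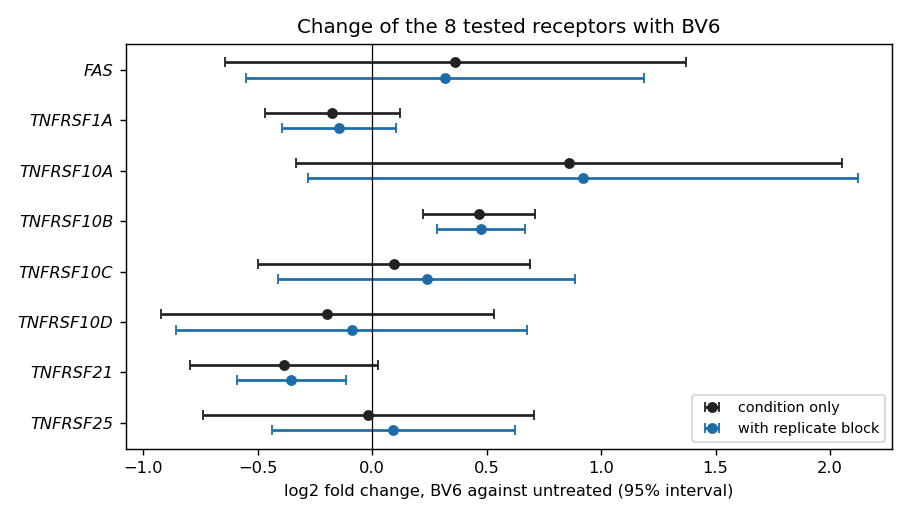
Log2 fold change of BV6 against untreated for the 8 tested receptors, with 95% intervals, from the edgeR fit with condition only (black) and with the replicate block (blue). Only for TNFRSF10B in both fits and TNFRSF21 with the block does the interval leave out 0, and none of the 8 passed after adjustment over all genes.

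Of the 9 receptors, 8 had enough counts to be tested, 4 with a higher and 4 with a lower estimate, and their median log2 fold change was 0.04, against -0.014 for all 23124 genes tested. With the replicate block the median of the 8 was 0.17. By edgeR with Benjamini-Hochberg adjustment, none of the 8 had an adjusted p below 0.05, whereas 0.45% of all tested genes were called. At an unadjusted p below 0.05 there was 1 receptor, TNFRSF10B, where 8.39% of all genes passed. With the replicate block, 0 of 8 were called against 0.943% of all genes, and 2 of 8 (TNFRSF10B and TNFRSF21) had an unadjusted p below 0.05 against 11.4%. The DESeq2 Wald test called 0 of the 8 receptors to which it gave an adjusted p (all but TNFRSF11B), against 1.7% of all genes with one, and TNFRSF10B had an adjusted p of 0.0598 there. Groups without overlap were found for 1 of the 8 receptors and for 8.83% of all genes. These counts are close to the background. The p-values rest on the spread between these 7 samples, whose cultures the labels do not describe further. The paper calls the samples in its heat map biological replicates. The fit with condition only takes the samples as independent, although partners of 1 experiment tended to deviate together.

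In untreated cells, the receptors spanned a wide range of levels. Per kb of the union of all exons, TNFRSF10B was highest at 21.8 ± 1.98 CPM per kb (SD, n = 4), above 88.7% of the 17460 tested genes with a length. TNFRSF1A followed at 14.98 ± 1 CPM per kb (82.8%) and TNFRSF21 at 9.05 ± 1.4 CPM per kb (72.3%). The ranges of these 3 genes did not overlap each other or those of the other receptors. TNFRSF25 came next at 0.632 ± 0.162 CPM per kb and TNFRSF10C at 0.441 ± 0.0946 CPM per kb. Their ranges overlapped, although TNFRSF25 was above TNFRSF10C in each of the 4 libraries. TNFRSF10D had 0.158 ± 0.0304 CPM per kb, apart from both neighbours. TNFRSF10A (0.0581 ± 0.0341 CPM per kb) and TNFRSF11B (0.0278 ± 0.0107 CPM per kb) had overlapping ranges, and FAS was at the bottom with 0.00971 ± 0.00367 CPM per kb, its range just touching that of TNFRSF11B although it was lower in each of the 4 libraries.

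The order depended on the length at 2 places. The exon union of FAS in GENCODE release 44 has 29313 bases, against 3696 in its reference transcript, and with the latter FAS had 0.077 ± 0.0291 CPM per kb (SD, n = 4) and ranked above TNFRSF10A and TNFRSF11B, with overlapping ranges. With reference transcripts, TNFRSF1A (29 ± 1.94 CPM per kb) also came before TNFRSF10B (27.3 ± 2.48 CPM per kb) with overlapping ranges. The exon union of TNFRSF1A has 4205 bases and its reference transcript 2171. In BV6-treated cells, by contrast, TNFRSF10B was above TNFRSF1A with both lengths, at 30.1 ± 2.32 against 13.3 ± 2.22 CPM per kb (SD, n = 3) of exon union and at 37.7 ± 2.9 against 25.7 ± 4.3 CPM per kb of reference transcript.

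**Figure D4:**
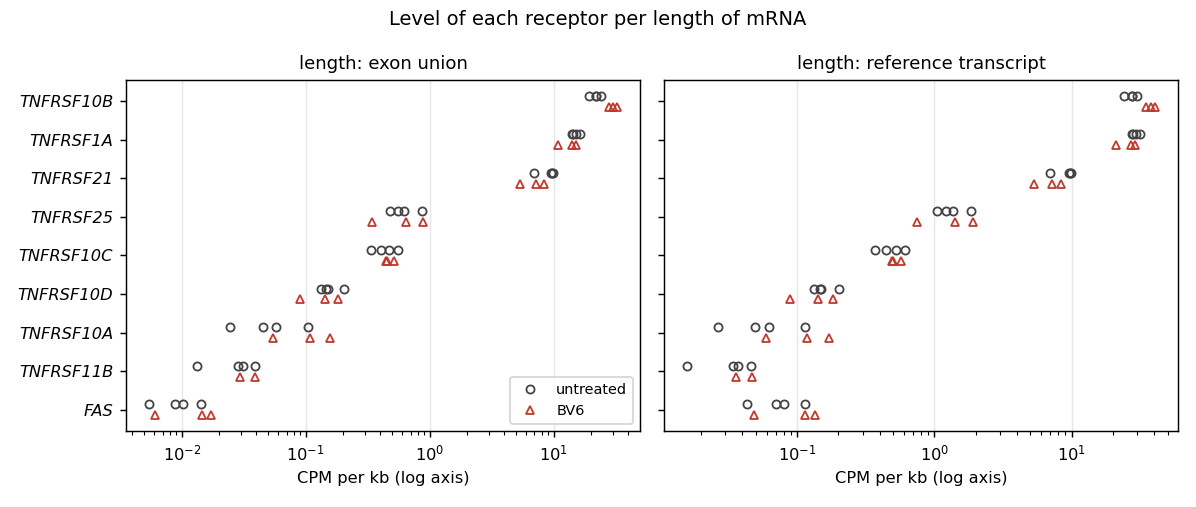
CPM per kb of the 9 receptors on a log axis, computed with the exon union (left) and with the reference transcript (right). Circles are the 4 untreated and triangles the 3 BV6 libraries, and the BV6 library with 0 counts of TNFRSF11B is not drawn. TNFRSF10B, TNFRSF1A and TNFRSF21 lie above 5 CPM per kb in every library, and TNFRSF10C, TNFRSF10D, TNFRSF10A, TNFRSF11B and FAS below 1.

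Some of these genes share exons with others, and the handling of strand in the counting is not stated. TNFRSF10B shares 377 exonic bases (7.52% of its union) with RHOBTB2 on the opposite strand, which had 35.7 ± 4.79 CPM (SD, n = 4) without BV6 and 29.6 ± 6.31 CPM (SD, n = 3) with it, with a log2 fold change of -0.27 ± 0.17 (SE, adjusted p = 0.729, edgeR). FAS shares 387 bases with ACTA2 on the opposite strand and 166 bases with STAMBPL1 on its own strand. ACTA2 had 0.522 ± 0.121 CPM in untreated and 0.516 ± 0.1 CPM in BV6-treated cells, and STAMBPL1 10.4 ± 1.85 and 9.9 ± 0.444 CPM. TNFRSF25 shares 383 bases with ESPN on the opposite strand, which had 0.49 ± 0.116 and 0.482 ± 0.226 CPM. TNFRSF10C shares 16.9% and 16.1% of its union with 2 unnamed genes on its own strand, TNFRSF10A shares 7.65% and 9.09% with the opposite-strand genes TNFRSF10A-AS1 and TNFRSF10A-DT, and FAS shares 6.48% with an unnamed one. The counts of the receptors in these stretches are uncertain, and the TRAIL receptor genes are close paralogs whose reads could be split.

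The listed ligands of these receptors, which include none for DR6, were hardly transcribed by RH30 cells themselves. FASLG, the gene of FasL, had at most 7 counts in any library. TNF had 2 to 11 counts in untreated and 4 to 10 counts in BV6-treated cells. TNFSF10, which encodes TRAIL, had 5, 0, 7 and 4 counts in untreated replicates 1 to 4 and 10, 10 and 4 counts in BV6 replicates 2 to 4. TNFSF15, the gene of TL1A, had 4 to 6 counts in untreated cells and 4, 24 and 8 counts with BV6. TNFSF11, the gene of RANKL, had at most 3. Of the 6 ligand genes, only LTA passed the filter, at 0.167 ± 0.0451 CPM (SD, n = 4) without BV6 and 0.147 ± 0.0895 CPM (SD, n = 3) with it (log2 fold change -0.19, SE 0.497, adjusted p = 0.937, edgeR).

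The adaptors, caspases and inhibitors next to the death domain were all transcribed, but not at like levels. CASP10, given after its values were seen, had only 33 to 78 counts in untreated and 42 to 66 counts in BV6-treated cells. All 8 genes of the receptor-proximal list (FADD, TRADD, RIPK1, TRAF2, CASP8, CASP10, CFLAR, BAG4) were tested and none was called by edgeR, with 6 higher and 2 lower and a median log2 fold change of 0.14. CFLAR, which encodes the caspase-8 inhibitor cFLIP, had 8.63, 7.86, 10.6 and 9.35 CPM in untreated replicates 1 to 4 and 13.3, 12.2 and 14.3 CPM in BV6 replicates 2 to 4, without overlap. Its estimated log2 fold change was 0.54 ± 0.147 (SE), with an adjusted p of 0.237 (edgeR), 0.209 with the replicate block and 0.0489 with DESeq2. BAG4, whose product binds the death domain of TNFR1, had 20.1 ± 2.49 CPM (SD, n = 4) without BV6 and 25.3 ± 1.28 CPM (SD, n = 3) with it (log2 fold change 0.33, adjusted p = 0.553, edgeR). The 8 genes of the downstream list, which act in the mitochondrial and executing steps of apoptosis, were tested with none called and a median log2 fold change of -0.04. Among them DIABLO, the gene of Smac, had the smallest p, with 40.1 ± 1.57 CPM in untreated and 45.9 ± 1.79 CPM in BV6-treated cells (log2 fold change 0.19, adjusted p = 0.652, edgeR), followed by BAX (log2 fold change -0.17, adjusted p = 0.833).

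Calls were found among the regulators that act on ubiquitin at the receptor complexes. Of 9 IAP and ubiquitin regulators tested, 4 rose and none fell, where 0.394% of all genes were called as higher and 0.0562% as lower in BV6. These were BIRC3, the gene of cIAP2 (log2 fold change 4.86, adjusted p = 0.00341), BIRC2, the gene of cIAP1 (log2 fold change 1.54, adjusted p = 0.0269), and the deubiquitinases CYLD (log2 fold change 0.96, adjusted p = 0.0109) and TNFAIP3, which encodes A20 (log2 fold change 0.86, adjusted p = 0.0145, all edgeR). BIRC3 had 2.44 ± 1.57 CPM (SD, n = 4) without BV6 and 70.4 ± 27.4 CPM (SD, n = 3) with it. With each library left out in turn, BIRC3 and CYLD passed in 7 of 7 fits and BIRC2 and TNFAIP3 in 3. The median of the list was 0.23. The other 5 genes (XIAP, OTULIN, RNF31, SHARPIN, RBCK1) were not called.

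Among 20 other receptors of the superfamily, 14 were tested and 1 was called, against 0.45% of all genes. TNFRSF9, which encodes 4-1BB, rose from a mean of 3.07 ± 1.15 CPM (SD, n = 4) to one of 22.4 ± 6.63 CPM (SD, n = 3), with a log2 fold change of 2.87 ± 0.318 (SE, adjusted p = 0.00574, edgeR). TNFRSF19 had 44.1 ± 8.15 CPM in untreated and 20.4 ± 9.31 CPM in BV6-treated cells (log2 fold change -1.11), with an adjusted p of 0.234 without and 0.018 with the replicate block (edgeR). The median of the 14 was -0.29, against 0.04 for the 8 death and decoy receptors, and with the replicate block these medians were -0.14 and 0.17. The difference between the lists was not tested. NGFR, named after its values were seen, encodes p75NTR, another receptor with a death domain. It had 677, 671, 464 and 458 CPM in untreated replicates 1 to 4 and 431, 269 and 358 CPM in BV6 replicates 2 to 4, without overlap, and a log2 fold change of -0.69 ± 0.201 (SE). Its adjusted p was 0.295 without and 0.0471 with the replicate block (edgeR).

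TNFRSF10B and FAS are known targets of p53, and TNFRSF10B is known to be induced by the stress factor CHOP. The paper counts DR5 among the NF-κB targets whose mRNA fell in RH30 cells when the NF-κB-inducing kinase NIK was silenced. That regulation was not tested here. Of 12 further p53 targets, all tested, none was called, with 7 higher and 5 lower and a median log2 fold change of 0.04. GDF15 had 2.3 ± 0.467 CPM in untreated and 3.8 ± 1.25 CPM in BV6-treated cells (log2 fold change 0.72, adjusted p = 0.508) and TP53INP1 8.85 ± 2.55 and 12.1 ± 2.96 CPM (log2 fold change 0.45, adjusted p = 0.689, both edgeR). Of 9 genes of the ATF4-CHOP list, all tested, 9 had a higher estimate and 2 were called as up-regulated, against 0.394% of all genes. The median log2 fold change of the list was 0.57, against -0.014 for all genes tested. PPP1R15A (GADD34, a phosphatase subunit) rose from a mean of 48.7 ± 3.01 CPM (SD, n = 4) to one of 90.6 ± 18.9 CPM (SD, n = 3), with a log2 fold change of 0.90 (adjusted p = 0.029, edgeR). ASNS, asparagine synthetase, rose from 14.1 ± 2.19 CPM on average to 31.7 ± 7.49 CPM (log2 fold change 1.16, adjusted p = 0.0364 without and 0.0618 with the replicate block, edgeR). Each of these 2 genes passed in only 1 of the 7 fits that left out a library. With the replicate block 3 genes of the list were called, against 0.943% of all genes in either direction. These were PPP1R15A and, named after their values were seen, DDIT3, the gene of CHOP itself, and TRIB3, a pseudokinase gene. DDIT3 had 91.7 ± 27.3 CPM (SD, n = 4) without BV6 and 167 ± 24.1 CPM (SD, n = 3) with it, without overlap, and an adjusted p of 0.201 without and 0.0431 with the block (block log2 fold change 0.90, edgeR). For TRIB3 the adjusted p was 0.206 without and 0.0374 with the block (block log2 fold change 1.21, edgeR). Whether these genes have a part in the level of TNFRSF10B was not tested.

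**Figure D5:**
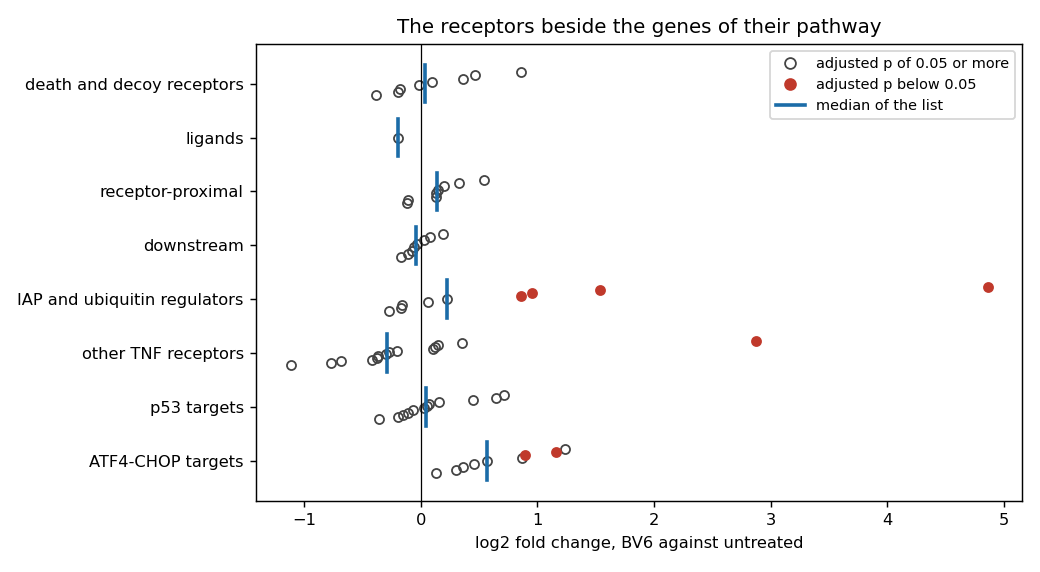
Log2 fold change of BV6 against untreated for each tested gene of the receptors and of the 7 lists of pathway genes. Filled points had an adjusted p below 0.05 (edgeR), open points did not, and blue bars are medians. The 8 receptors are all open points around a median of 0.04, while 4 IAP and ubiquitin regulators, 1 other TNF receptor and 2 ATF4-CHOP genes are filled.

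Genes whose profile over the 7 libraries was most like that of TNFRSF10B were sought among 17058 genes with a mean of at least 1 CPM, by the root mean square difference of log2 CPM centred on the mean of each gene. The nearest was AL358472.6, with a difference of 0.0543. It had 77.4 CPM on average in untreated and 105.2 CPM in BV6-treated cells, with a log2 fold change of 0.44 and an adjusted p of 0.153 (edgeR). For TNFRSF21, the most alike genes were STK32C (0.0278), ST8SIA2 (0.0576), which encodes a polysialyltransferase, and TNFAIP8L1 (0.0742). ST8SIA2 had 43.9 CPM on average in untreated and 31.9 CPM in BV6-treated cells, a log2 fold change of -0.46 (adjusted p = 0.509, edgeR). None of the genes named here as alike was called. They were chosen for profiles like those of receptors that were not called, so this is no separate result.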

How the data were processed

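RNA sequencing counts of RH30 cells were used, from 4 untreated and 3 BV6-treated libraries, grouped by the treatment label. The authors deposited raw counts per gene, without normalization, from stranded poly(A) libraries sequenced in paired-end mode, mapped to GRCh38 with STAR 2.6.1d (per the labels) and assigned to genes by a model of their own that merges the Ensembl isoforms of a gene. The counting program, its strand setting and whether both mates of a pair were counted are not given in the sources used here. The count totals per library are well above the read numbers that the methods state, so both mates may have been counted. No 2 libraries of a group agreed within sampling noise.

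All 57189 genes entered the analysis in R 4.3.3. Genes were filtered by filterByExpr (minimum count 10), scaled by TMM and compared with the quasi-likelihood test of edgeR 4.0.16, with Benjamini-Hochberg adjustment over 23124 genes. A gene with an adjusted p below 0.05 was called. The design held the condition only. Each SE is the absolute log2 fold change over the root of F, and 95% intervals from the degrees of freedom of the fit. The scripts were run first on simulated counts with known changes. Alternatives were DESeq2 1.42.0, limma-voom (limma 3.58.1), RLE scaling, the replicate block, no filter, a filter of at least 10 counts per library and leaving out each of the 7 libraries.

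Samples of 1 experiment tended to deviate together from their group means, least clearly for replicate 4. Among the 3 experiments with both conditions, the correlations across genes were 0.515, 0.322 and 0.197 for replicates 2, 3 and 4. Libraries of different experiments had -0.352 to 0.132 there. With untreated replicate 1 in the group mean, partners had 0.462, 0.438 and 0.0847. BV6 replicate 4 then had a higher correlation with untreated replicate 1 (0.278) than with its partner. Untreated replicate 4 likewise had a higher one with BV6 replicate 3 (0.261). The pairing rests on the tag in the titles, whose meaning was inferred.

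Coordinates, exon unions and reference transcripts are those of GENCODE release 44 for GRCh38, matched by symbol. It is later than the annotation used for counting. The receptors and lists were chosen with earlier results of these data known. The text names all receptors and ligands, the called genes of each other list or else its 2 of smallest p, and the 3 genes most like each of the 2 receptors of smallest p. Some genes that this rule or a list holds are not reported here. The smallest p of the exact permutation test (scipy 1.17.1) is 0.0571.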

Additional observations from a re-analysis of the deposited data

Results flagged for a closer look

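In 4 of 46 sets of 4 untreated values, 1 library stood far from the other 3, measured as the gap to its nearest neighbour over the whole range, where chance gives about 1 in 20. For TNFRSF21, untreated replicate 2 was low at 25.03 CPM, the rest being at 34.2 to 35.8 CPM (ratio 0.853). In untreated replicate 1, the library without a BV6 partner, MYOD1 had 474 CPM against 293 to 311 CPM (ratio 0.899), FGFR4 933 CPM against 526 to 578 CPM (ratio 0.872) and PTPRC, the leukocyte gene of CD45, 58 counts against 14 to 16 counts (ratio 0.889 in CPM). No cause was tested.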

How the results depend on the processing

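No receptor that could be tested was called in the 13 alternative fits, and all gave TNFRSF10B a positive and TNFRSF21 a negative log2 fold change. The direction turned only for TNFRSF25, TNFRSF10C and TNFRSF10D, whose main estimates were smaller than their SEs. TNFRSF25 was at 0.0927 with the replicate block, where untreated replicate 1 carries no information, and between -0.361 and 0.283 with a library left out. TNFRSF10C lay between -0.0153 and 0.233 and TNFRSF10D between -0.429 and 0.0298 in those fits. With reference transcripts in place of exon unions, 4 of the 9 receptors kept their rank by level. For the lists, the replicate block called 3 other TNF receptors in place of 1 (TNFRSF9, TNFRSF19 and NGFR) and 3 ATF4-CHOP genes in place of 2, with DDIT3 and TRIB3 gained and ASNS lost. The DESeq2 Wald test called 1 receptor-proximal gene (CFLAR), 2 other TNF receptors (TNFRSF9 and TNFRSF19) and 4 ATF4-CHOP genes (PPP1R15A, ASNS, DDIT3 and TRIB3). The cause of these differences was not tested. The replicate block changed no call of a receptor. Of all genes, edgeR called 104, the block 218, no filter 242, DESeq2 408, and fits without 1 library 38 to 89. TNFRSF11B was tested only without the filter and by DESeq2, which gave it no adjusted p. FAS and TNFRSF10A were not tested with a minimum of 10 counts in every sample, nor TNFRSF10A without untreated replicate 4. FAS, TNFRSF10A, TNFRSF10C, TNFRSF10D and TNFRSF11B had at most 66 counts in a library. Their SEs of 0.264 to 0.531, where tested, were not all above that of TNFRSF25 (0.322), which had 90 to 282 counts.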
